A study of Spodoptera frugiperda with 12 samples.

Results

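*ND1*, *ND4L*, *ND4* and *ND5* are the mitochondrial genes for complex I subunits that are read from the minus strand of the mitochondrial genome. Their N6-methyladenosine (m6A) peaks were examined here in embryos of a noctuid moth, the fall armyworm (*Spodoptera frugiperda*). The members are the peaks on the mitochondrial sequence NC_027836.1, minus strand, that overlap the RefSeq positions of these genes: 68 peaks of 331440 in all lists, and of 180 on the mitochondrial sequence. The 2 h lists held 11, 11 and 12 of them and the 24 h lists 10, 10 and 14. The other 112 mitochondrial peaks lay on the plus strand over the other 9 coding genes.

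m6A is a methyl group on adenosines inside RNA, and an m6A peak is a stretch that was called as enriched after capture with an antibody against it. Whole embryos were collected at 2 h and at 24 h after oviposition from a laboratory colony, and the labels name neither a strain nor any other treatment. Each time has 3 capture samples, each with its own deposited list of peaks, and 3 uncaptured input samples that were not analysed here. Whether the 3 samples of a time stem from different batches of eggs is not stated in the labels, and the p-values therefore reflect only how far these samples differ, possibly for technical reasons. The lists hold 51157 to 58161 peaks each, without read counts, and the depth behind a peak is unknown. In whole embryos, fewer mitochondria-rich cells and less mitochondrial RNA per cell cannot be told apart, and without the input a stretch free of peaks can also be a stretch with little RNA.

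Complex I, NADH:ubiquinone oxidoreductase, is the entry enzyme of the respiratory chain. It takes electrons from NADH, passes them to ubiquinone and pumps protons across the inner mitochondrial membrane, and animal mitochondrial DNA encodes the core of its membrane arm. ND1 lies where the membrane arm meets the peripheral arm and helps form the ubiquinone site, ND4L is a small subunit of the membrane arm, and ND4 and ND5 are antiporter-like subunits of the proton-pumping part. Animal mitochondrial DNA is transcribed into long precursors, many of which are cut at the transfer RNAs between the coding genes. In the RefSeq table a transfer RNA gene lies between *ND5* and *ND4*, whereas no gene lies between *ND4* and *ND4L*, which are 40 bases apart.

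The gene positions were matched to the lists by shared boundaries, so the fit of peaks to genes is not an independent result. All 68 peaks began on a step of 25 bases counted from the low-coordinate end of their gene, which is the 3' end on this strand, and all 68 ended on such a step or at the 5' end of the gene. None of the 68 reached beyond its gene. In each of the 4 genes, each of the 6 lists had a peak that began exactly at the 3' end, whereas the 5' end was touched in 3 lists in *ND1*, in 3 in *ND4L*, in 1 in *ND5* and in none in *ND4*. The 5' boundary of *ND4* therefore comes from the RefSeq table without a peak edge on it. Positions can only move in steps of 25 bases, except at the 5' end, where the incomplete step holds 14 bases in *ND1* and *ND4*, 16 in *ND4L* and 21 in *ND5*. The 3' end is thus also the origin of the steps. Whether the contrast between the ends follows the gene or this origin was not tested. Below, base 1 is the 5' end of the gene, and coordinates are those of the lists, counted from 1. There were 0 plus-strand peaks over these genes in any list. The library kit is not described as marking strand, so the strand of a peak may be that of its gene.

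**Figure D1:**
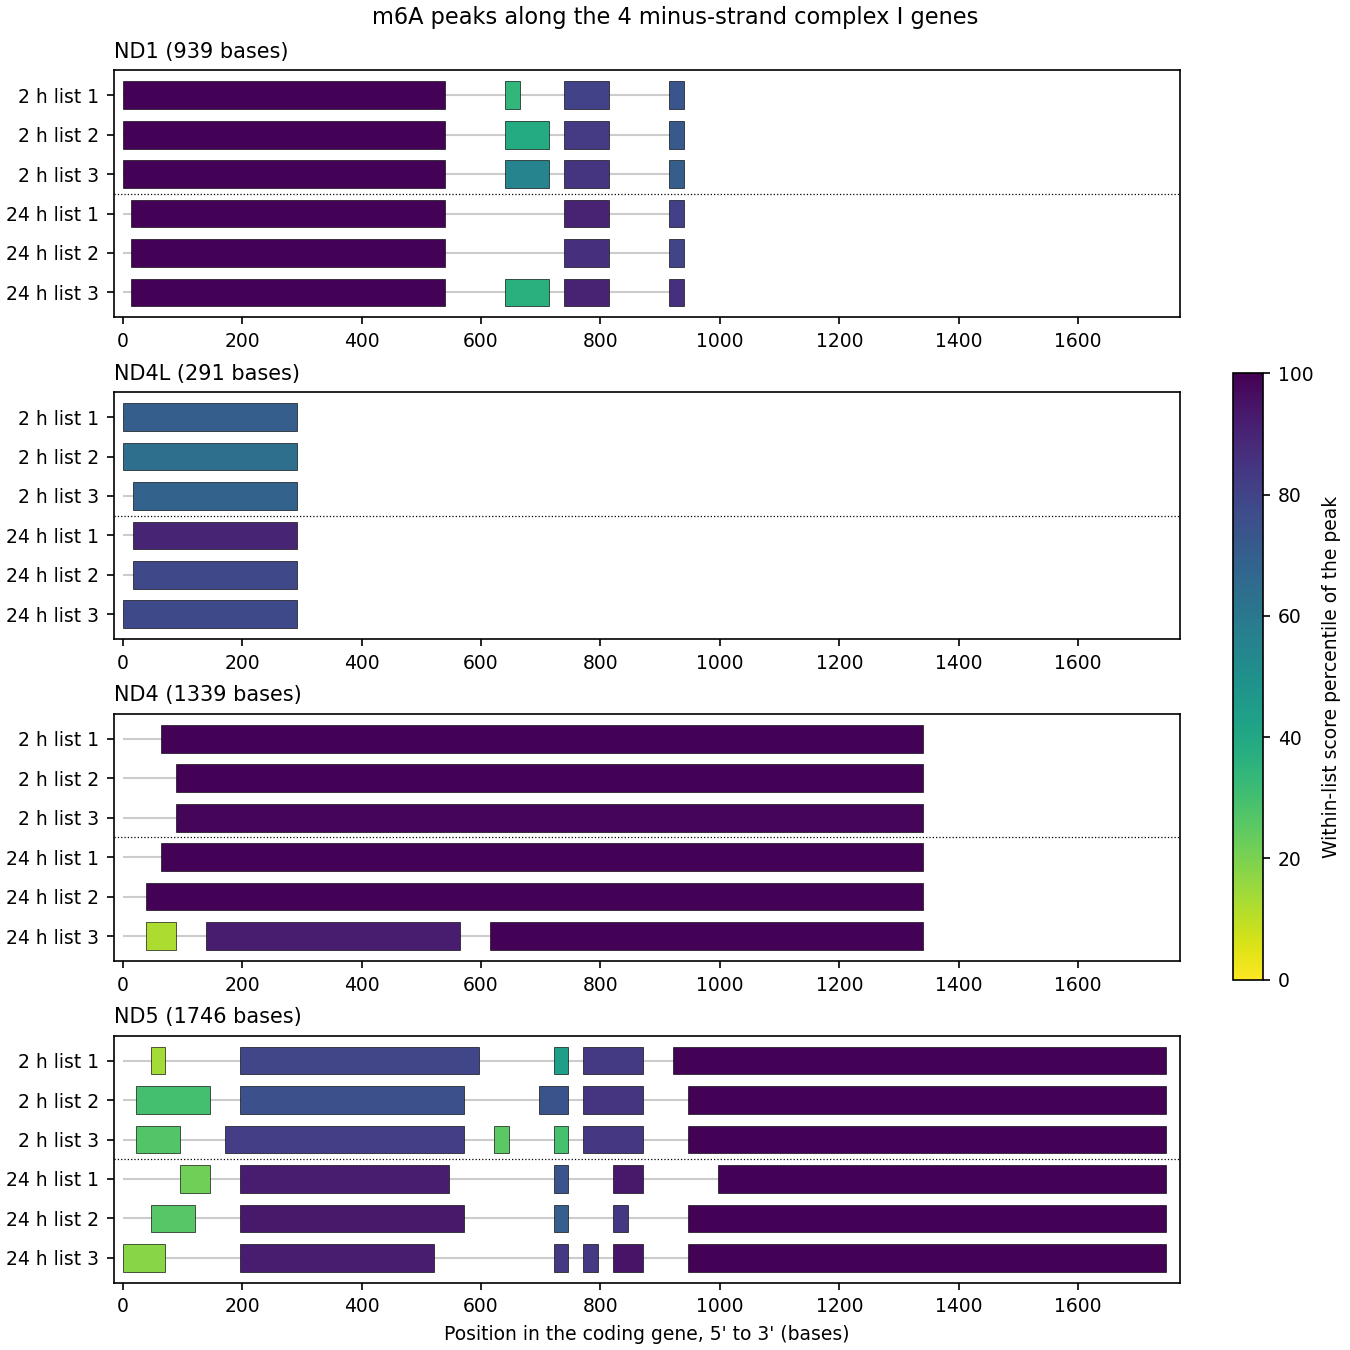
Peaks of the 6 lists along each gene, with the position in bases from the 5' end on the horizontal axis and 1 row per list; bar colour gives the percentile of the peak's score within its list, and grey lines are stretches without a peak. *ND1* has its long peak at the 5' end, *ND5* has it at the 3' end, and *ND4* and *ND4L* are covered nearly throughout.

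*ND1*, 939 bases long, had a long strong peak over its 5' part and short islands towards its 3' end. The long peak ran from 12175 to 12713 (bases 1 to 539) in all 3 lists of 2 h and from 12175 to 12699 (bases 15 to 539) in all 3 lists of 24 h, with an infinite score in 6 of 6 lists. The 3' edge of this peak was therefore the same base in all lists, and its 5' edge separated the times by the incomplete step of 14 bases at the start of the gene. Of the 49 distinct edge positions in these genes, the edge at 12713 was the only one present in 3 of 3 lists of 2 h and in 0 of 3 of 24 h. The opposite held for 2 edges. That at 12699 among them is the other side of the same 14-base shift, and edges of other genes were not tallied. A gap of 100 bases without a peak in any list followed, from 12075 to 12174 (bases 540 to 639).

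Next in *ND1* came an island that was less regular than the others. It ran from 12000 to 12074 (bases 640 to 714) in 2 of the 2 h lists and in the third 24 h list, was shortened to 12050 to 12074 in the first 2 h list, and was missing in the first and second 24 h lists. Its score percentiles, the rank of a peak among all peaks of its list, were 34.1, 38.7 and 54.9 at 2 h and 36.4 in the single 24 h list, so it sat in the lower or middle part of each list. By contrast, the islands from 11900 to 11974 (75 bases, bases 740 to 814) and from 11775 to 11799 (25 bases, bases 915 to 939, the very 3' end) were identical to the base in all 6 lists. They were the only peaks identical in all 6 lists among the 35 distinct peaks of these genes. Identical peaks in other genes were not counted, so no background is given. The plus-strand genes *COX2* and *ATP8* also had 1 peak in every list, with unchanged coverage of 99.0% and 84.6%. The stretch from 11800 to 11899 (100 bases) was free of peaks in every list, as was that from 11975 to 11999 (25 bases).

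*ND4L*, the smallest of these genes at 291 bases, had a single peak in each list, which reached from end to end in 3 of 6. The peak covered the whole gene (9573 to 9863) in the first and second 2 h lists and in the third 24 h list. In the third 2 h list and the first and second 24 h lists it stopped at 9847, the incomplete step of 16 bases short of the 5' end. No base of *ND4L* other than those 16 was without a peak in any list, and their state did not separate the times.

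*ND4*, 1339 bases long, was covered by 1 long peak from its 3' end in 5 of 6 lists. Its 5' edge lay at 9468, 9443 and 9443 in the 2 h lists and at 9468 and 9493 in the first and second 24 h lists, which is 40 to 90 bases into the gene. In the third 24 h list the same stretch was broken into 3 peaks, from 8194 to 8918, from 8969 to 9393 and from 9444 to 9493, with 50 free bases at each break. The piece nearest the 3' end had an infinite score, the middle piece had a score of 180.7, and the 50-base piece nearest the 5' end had a score of 10.01. The first 39 bases of *ND4*, 9494 to 9532, were free of peaks in all 6 lists. They lie beside the 40 bases between *ND4* and *ND4L*. None of the 68 peaks reached beyond its gene, so the lack of peaks in those 40 bases is uninformative.

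*ND5*, 1746 bases long, had the most broken pattern. Its 3' end carried the strong peak, which began at 6382 (base 1746) in all lists and reached 7206, 7181 and 7181 in the 2 h lists and 7131, 7181 and 7181 in the 24 h lists, with an infinite score in 6 of 6. Upstream of it lay 2 short islands, a long weaker peak and a faint 5' peak. The long weaker peak spanned 7532 to 7931, 7557 to 7931 and 7557 to 7956 in the 2 h lists and 7582 to 7931, 7557 to 7931 and 7607 to 7931 in the 24 h lists. Its 5' edge thus sat at 7931 in 5 of 6 lists, while its 3' edge took 4 positions. The faint peak near the 5' end, between 7982 and 8127, had a different extent in each of the 6 lists, with no base shared by all, and percentiles of 13.6 to 30.0.

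The short island of *ND5* next to the strong peak was narrower at 24 h. It ran from 7257 to 7356 (100 bases) in all 3 lists of 2 h. At 24 h it ran from 7257 to 7306 in the first and the third lists and from 7282 to 7306 in the second, and the third list had a separate 25-base peak from 7332 to 7356. The edge at 7306 was shared by all 3 lists of 24 h and by none of 2 h, as 1 of 2 such edges among 49. Edges of other genes were not tallied, so no background is given for it. The second island began at 7382 in all lists and ended at 7406 in 5 of 6. One further peak, 7482 to 7506 in the third 2 h list, had no counterpart elsewhere.

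Gaps free of peaks in all 6 lists added up to 439 bases, 10.2% of the joint coding length of 4315 bases. *ND1* held 225 of these bases in 3 gaps (24.0% of its length), *ND5* held 175 in 5 gaps (10.0%), *ND4* held 39 in 1 gap (2.91%) and *ND4L* had none. The gaps of *ND5* were short. They lay at 7207 to 7256 and 7432 to 7481 (50 bases each) and at 7357 to 7381, 7507 to 7531 and 7957 to 7981 (25 bases each). The longest common gaps, 100 bases, were both in *ND1*.

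Of the 174 steps of 25 bases in these genes, 127 (73.0%) were covered in all 6 lists, 18 (10.3%) in none and 29 (16.7%) in some. In the other 9 coding genes, 195 of 281 steps (69.4%) were covered in all lists, 56 (19.9%) in none and 30 (10.7%) in some. *ND5* held 18 of the 29 varying steps, *ND4* 6, *ND1* 4 and *ND4L* 1. More 2 h lists than 24 h lists covered 24 of the 29, more 24 h lists covered 4, and 1 was equal. In the other 9 genes the lean was alike, with 25 of 30 varying steps covered by more 2 h lists, 1 by more 24 h lists and 4 equal. Pairs of 2 h lists differed in 6 to 10 of the 174 steps, pairs of 24 h lists in 8 to 18, and the 9 pairs across times in 11 to 17. The spread among the 24 h lists rests on the third of them: it differed from the first in 18 steps and from the second in 16, while the first and the second differed in 8.

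Of the 49 distinct edges of these genes, 9 were at the same base in all lists. Edges of other genes were not tallied, so no background is given for these shares. Of 23 distinct 3' edges 7 (30.4%) were at the same base in all 6 lists, and of 26 distinct 5' edges 2 (7.69%) were. The starts at the 3' ends of the 4 genes make up 4 of those 7, where the peak meets the gene boundary. Leaving out edges at gene ends, 3 of 19 distinct 3' edges and 2 of 23 distinct 5' edges were shared by all 6 lists, and the difference was not tested. The remaining shared 3' edges were at 11900 and 12175 in *ND1* and at 7382 in *ND5*, and the shared 5' edges at 11799 and 11974 were both in *ND1*. In *ND5*, 15 of 28 distinct edges occurred in a single list.

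Coverage by position differed between the genes. Each gene was cut into 3 equal parts. In *ND1* the 5' part was covered to 97.8% ± 2.45 (SD, n = 6 lists) and the 3' part to 45.3% ± 12.0 (SD, n = 6), a difference of -52.5 percentage points, with the 3' part lower in 6 of 6 lists (p = 0.031 in a two-sided exact sign-flip test, 0.0417 adjusted over the 4 genes). In *ND5* the direction was opposite: the 5' part was covered to 75.4% ± 7.41 (SD, n = 6), the middle part to 55.8% ± 10.0 (SD, n = 6) and the 3' part to 100% in every list. The 3' part of *ND5* exceeded the 5' part by 24.6 percentage points in 6 of 6 lists (p = 0.031 by the same exact test, 0.0417 adjusted). In *ND4* the excess was 16.2 percentage points, also in 6 of 6 lists (p = 0.031 by the exact test, 0.0417 adjusted), with 83.8% ± 4.57 (SD, n = 6) in the 5' part and 100% in the 3' part. In *ND4L* the parts differed only through the 16-base step at the 5' end, with a difference of 8.25 percentage points (p = 0.25 by the exact test). The smallest p that 6 lists allow is 0.031, and the difference between genes was not tested. These p-values cover only how alike the calls of the lists are within each gene, not whether position in a gene matters in general.

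**Figure D2:**
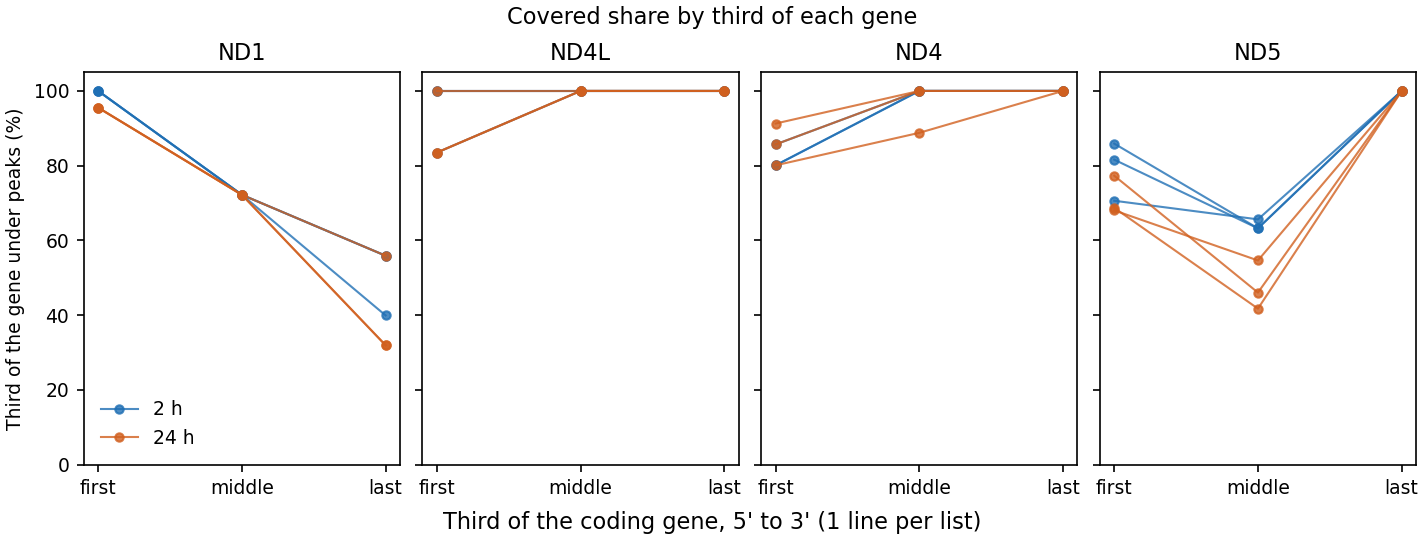
Share of each equal part of a gene that lay under peaks, in percent, with 1 line per list in blue (2 h) or orange (24 h). *ND1* falls from the 5' to the 3' part in all 6 lists, *ND5* is lowest in its middle part and reaches 100% in its 3' part, and lines that coincide hide each other.

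Between the times, joint coverage was lower in every 24 h list, with the larger differences in *ND5* and *ND1*. Peaks covered 83.5%, 85.9% and 84.9% of the joint coding length in the 2 h lists and 78.8%, 81.1% and 80.8% in the 24 h lists. The groups did not overlap, with means of 84.8% ± 1.16 and 80.2% ± 1.26 (SD, n = 3 each) and a difference of -4.53 percentage points (exact two-sided permutation p = 0.1, the smallest that 3 lists against 3 can give). No comparison of the times can therefore pass 0.05 in this design. The 9 plus-strand genes changed by a like amount, -4.60 percentage points (exact two-sided permutation p = 0.2). The difference between these changes was 0.0668 percentage points (exact two-sided permutation p = 1). Without *ND5* the joint difference of the remaining genes was -2.05 percentage points (exact two-sided permutation p = 0.1).

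*ND5* was covered to 78.8%, 83.0% and 81.6% in the 2 h lists and to 70.2%, 74.5% and 74.2% in the 24 h lists, so every 24 h list lay below every 2 h list. The difference was -8.19 percentage points (exact two-sided permutation p = 0.1, adjusted p = 0.65 over the 13 coding genes). Lower coverage at 24 h without overlap held for 2 of the 13 coding genes, 15.4%, and *ND5* was the only one among the 4 minus-strand genes. Within *ND5* the middle part went from 64.0% ± 1.39 to 47.5% ± 6.56 and the 5' part from 79.4% ± 7.89 to 71.4% ± 5.17 (SD, n = 3 each), while the 3' part was at 100% in all lists. These values by part are descriptions without a test.

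The longest gap in *ND5* was 125, 125 and 75 bases in the 2 h lists and 175, 150 and 200 bases in the 24 h lists. It was longer in every 24 h list, by 66.7 bases on average (exact two-sided permutation p = 0.1, adjusted p = 1 over the 13 genes). With the weaker 50% of peaks removed from each list, the difference was 0 bases (exact two-sided permutation p = 1). Such a separation held for 7.69% of the 13 coding genes, that is for *ND5* alone. The number of peaks in *ND5*, 5, 5 and 6 at either time, did not separate the times (exact two-sided permutation p = 1). At this equal number of peaks, fewer bases were covered at 24 h.

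*ND1* was covered to 70.7%, 76.0% and 76.0% in the 2 h lists and to 66.6%, 66.6% and 74.5% in the 24 h lists. The third 24 h list overlapped the range of the 2 h lists, and the difference of -5.04 percentage points gave p = 0.2 (exact two-sided permutation test). Without that list it was -7.70 percentage points (exact two-sided permutation p = 0.2). It stemmed from the 14 bases at the 5' end, missing in all 3 lists of 24 h, and from the island from 12000 to 12074, missing in 2 of them. Where that island was missing the neighbouring gaps joined into 200 free bases.

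*ND4* had the same mean at both times, 94.0%, with 95.2%, 93.4% and 93.4% at 2 h and 95.2%, 97.1% and 89.6% at 24 h (exact two-sided permutation p = 1). The lowest value belonged to the third 24 h list, in which the peak was broken. Without that list the difference was 2.18 percentage points (exact two-sided permutation p = 0.3). *ND4L* was covered to 100% or to 94.5% in each list, depending on the 16-base step (exact two-sided permutation p = 1).

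**Figure D3:**
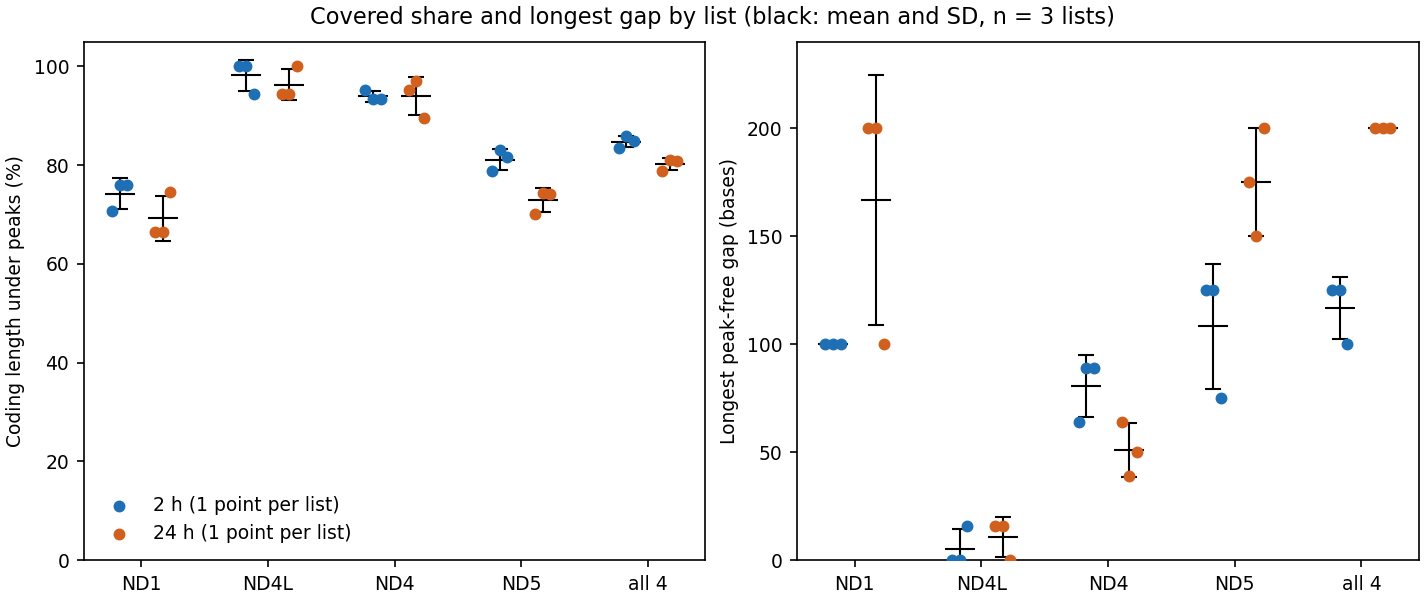
Left, percent of the coding length under peaks; right, longest stretch without a peak in bases; each point is a list, and black bars give the mean and SD of 3 lists. In *ND5* every 24 h list lies below every 2 h list in coverage and above it in longest gap, and in *ND1* and *ND4* the lists of both times overlap in coverage.

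Steps covered at only 1 of the times were few and all belonged to 2 h. Of the 174 steps, 2 were covered in 3 of 3 lists of 2 h and in 0 of 3 of 24 h: 7307 to 7331 in *ND5* (bases 797 to 821) and the 14-base step 12700 to 12713 at the 5' end of *ND1* (bases 1 to 14). This is 1.15% of the steps of these genes, next to 1.1% over all 13 coding genes, so the share is that of the background. The opposite pattern was found in 0 of 174 steps, and in 0% of the 455 steps of the 13 genes. With at least 2 of 3 lists required, 1 step was covered at 24 h and in no list of 2 h, and 2 steps the other way. This looser rule was not applied to the other coding genes, so no background is given. The 1 step of 24 h lies in *ND4*, from 9469 to 9493. There the 24 h peaks of the second and the third lists reached closer to the 5' end than any 2 h peak.

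Score ranks were higher at 24 h in several of these peaks. The score is the authors' own value for each peak, with no stated scale, and was used as a percentile within its list. Its percentile cannot separate peaks of infinite score, which all share the top rank of their list. The single *ND4L* peak stood at the percentiles 70.4, 64.0 and 68.9 of the 2 h lists and at 90.0, 78.2 and 78.1 of the 24 h lists. Every 24 h list was above every 2 h list, with a difference of 14.3 percentile points (exact two-sided permutation p = 0.1, adjusted p = 0.26 over the 13 genes). For the strongest peak of a gene this separation held in 38.5% of the 13 coding genes and the opposite in 0%. However, 8 of the 13 had an infinite score in all 6 lists, where the rank shows no difference between peaks, and all 5 others, *ND4L* and *ND4* among them, separated. *ND4* separated as well, at 98.8 to 99.3 against 99.4 in each 24 h list (exact two-sided permutation p = 0.1, adjusted p = 0.26). There the values follow the number of infinite scores in each list, since 5 of 6 *ND4* values are that shared top rank, and the exception is the third 2 h list with a score of 836.6. *ND1* and *ND5* had an infinite score in all lists and were not separated (exact two-sided permutation p = 0.6 each).

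Some weaker peaks of *ND5* and *ND1* also had higher ranks at 24 h. The long weaker peak of *ND5* stood at 78.9, 75.5 and 81.7 in the 2 h lists and at 92.5, 93.5 and 92.2 in the 24 h lists, the largest rise among the regions whose lists did not overlap, apart from *ND4L*. The *ND1* island from 11900 to 11974, identical in extent in all lists, stood at 80.3, 82.8 and 84.5 at 2 h and at 90.6, 86.3 and 90.4 at 24 h. The 25-base island at the 3' end of *ND1* stood at 73.9, 72.5 and 70.6 at 2 h and at 80.9, 80.1 and 86.1 at 24 h. All of these peaks were higher in every 24 h list, and the last 2 of them without any change of extent.

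The pattern was not general within the genes. The second *ND5* island stood at 44.5, 74.3 and 29.2 at 2 h and at 73.5, 70.0 and 83.2 at 24 h, and the island beside the strong peak at 83.4, 84.7 and 84.4 against 93.4, 83.8 and 94.7, so the lists overlapped in both. The faint 5' peak of *ND5* stood at 23.5 ± 8.76 and 21.8 ± 4.23 (SD, n = 3 each), also with overlap. Of the 10 merged regions of these genes with a peak in all 6 lists, 5 had all 24 h percentiles above all 2 h percentiles and 0 had them below. The *ND4* region is among the 5, although 5 of its 6 values are the shared rank of infinite scores. In 2 of the 10 the score was infinite in all 6 lists. Over the 17959 regions of the whole series with a peak in all 6 lists, the shares were 22.1% above and 20.7% below. They were 40.7% above over all 27 on the mitochondrial sequence and 35.3% above over the 17 on its plus strand, with 0% below in both. The higher ranks at 24 h were thus shared with the plus-strand genes, and no test was made on these counts. Whether the amount of mitochondrial RNA or the depth of the libraries moves with these ranks was not tested.

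**Figure D4:**
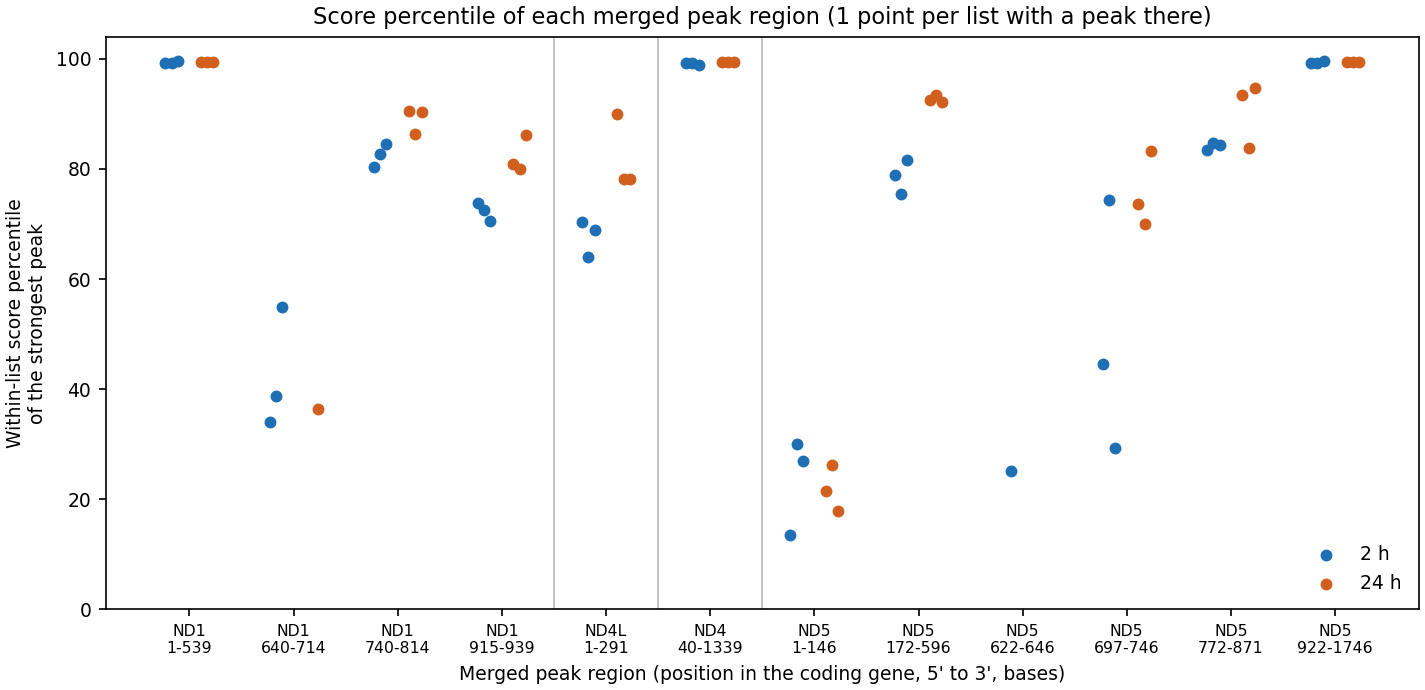
Percentile of the strongest peak's score within its list, for each merged region, ordered by gene and position in bases from the 5' end; each point is a list with a peak in that region. The 24 h points lie above the 2 h points in *ND4L* and in the *ND5* region from base 172 to 596, and the faint region at the 5' end of *ND5* stays at or below the percentile 30.0 at both times.

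Compared with the plus-strand mitochondrial genes, the minus-strand genes were covered more fully, but this rested on *COX1*. The joint share under peaks was 82.5% ± 2.71 (SD, n = 6 lists) in the 4 minus-strand genes and 75.4% ± 3.19 (SD, n = 6) in the other 9, a difference of 7.13 percentage points, the minus-strand share being the higher one in 6 of 6 lists (p = 0.031, exact sign-flip test, two-sided). *COX1*, the gene of the largest mitochondrially encoded cytochrome c oxidase subunit, was covered to 44.4% ± 6.65 (SD, n = 6), the lowest of the 13. Without it the remaining plus-strand genes were at 84.2% ± 2.30 (SD, n = 6), and the difference turned to -1.74 percentage points (p = 0.031, exact sign-flip test, two-sided). These p-values cover only how alike the lists are over the same genes, and whether strand matters was not tested. The minus-strand genes span much of the range themselves: over the 6 lists the mean coverage was 97.3% in *ND4L*, 94.0% in *ND4*, 77.0% in *ND5* and 71.7% in *ND1*.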

How the data were processed

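RNA of whole embryos was enriched on oligo(dT) beads, fragmented, captured with an m6A antibody and sequenced, per the labels' protocols. The submitters' processing notes name HISAT2 2.1.0, Bowtie2 2.2.5, fastp 0.20.0 and HOMER without roles. The caller of the peaks, its threshold and the build: not given in the sources used here. From each capture sample the authors deposited 1 list of peaks, with start, end, score and strand. The deposited score has no stated scale and was infinite for 0.930% to 1.50% of peaks per list. It was used only as a percentile within its list, with ties at their mean rank.

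Gene names and positions came from the mitochondrial entries of the RefSeq table of assembly GCF_023101765.2. They were matched to the lists by the shared gene boundaries, and gene strand was taken from the peaks. A peak counted for a gene when it overlapped it by at least 1 base. A 25-base step counted as covered when at least 50% of it lay under a peak. Regions were peaks of all 6 lists merged on 1 strand when they overlapped. The regions named are all merged regions, all gaps common to the 6 lists and all steps specific to a time.

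For the times, exact permutation tests of 3 lists against 3 were used, and for parts of genes and strands exact sign-flip tests over 6 lists, all two-sided. Benjamini-Hochberg adjustment was made over the 13 coding genes or over the 4 minus-strand genes. The members and lists of genes were chosen with earlier results of these data known. The functions were tested on simulated peaks with known steps. The tools were scipy 1.17.1, pandas 2.3.3, numpy 2.4.6 and matplotlib 3.10.9 under Python 3.11.15. The alternatives are in the closing section.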

Additional observations from a re-analysis of the deposited data

How the results depend on the processing

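The lower joint coverage at 24 h, -4.53 percentage points, ranged from -5.15 to -3.81 when any 1 list was left out, and was -3.92 with the stronger 50% of each list. With peaks of infinite score alone it turned to 5.08, because the third 2 h list has no infinite score in *ND4*. The comparison with the plus-strand genes turned from 7.13 to -1.74 percentage points without *COX1*, an alternative chosen after seeing the data, as was the joint coverage without *ND5*. Leaving out 1 list gave 6.75 to 7.57 for the strands, -50.3 to -55.1 for the 3' less the 5' part of *ND1*, 15.4 to 17.7 for *ND4* and 23.2 to 26.7 for *ND5*; 5 lists cannot give a sign-flip p below 0.0625. The median percentile over the peaks of *ND4* turned to a difference of -2.0, because the third 24 h list has 3 peaks there.

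The difference in the number of peaks, 0, was 1 in the stronger 50% of each list and -1.33 to 0.667 without 1 list. The difference in the longest gap, 83.3 bases, was 0 in the stronger 50%; the cause was not tested. The steps specific to 2 h numbered 2 to 4 without 1 list, with 4 without the third 24 h list. Those specific to 24 h numbered 0 to 1, or 1 with presence in 2 of 3 lists. These alternative counts were not made for the other coding genes. Edges shared by all 6 lists numbered 9 to the base and 20 within 25 bases.

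The labels link lists of the same replicate number only by that number. The correlations of their deviations over steps were 0.118, -0.102 and 0.134, against -0.200 to 0.118 for lists of other numbers. The first and the third 2 h lists correlated best with the 24 h list of the same number, and the second with the third 24 h list. Whether the lists are paired cannot be settled from these values. With the replicate block the joint difference in coverage was -4.53 percentage points, in number of peaks 0 and in longest gap 83.3 bases, with exact sign-flip p of 0.25 at the smallest.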
